A study of Mus musculus with 56 samples.

Results

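The microRNAs of the mouse liver 45 days after excision of miR-122 were compared with those of uninjected livers. Members are all microRNAs whose mean reached 10 RPM (reads scaled to a fixed library total) over the 15 livers of the fit, after the reads of miR-122 were left out of each library. This gave 253 of 479 listed microRNAs, measured in 6 of the 42 small RNA libraries of the series. Of the other 225 (miR-122 aside), 99 had no read in any of the 6 libraries. miR-184 lay just under the minimum (9.95 RPM) and miR-467g just over it (10.2 RPM). All mice were adults of the 129Sv/J background with loxP sites around the miR-122 precursor. Day 0 mice were uninjected (n = 3, named A, B and C), and day 45 mice received rAAV8-Ef1a-Cre, an adeno-associated virus that carries Cre recombinase (n = 3, also A, B and C). The Ef1a promoter is not specific to a cell type. No sample analysed here received a vector without Cre, so time, vector and loss of miR-122 cannot be told apart. Age and sex of these adults are not given in the sources used here, and each library is 1 mouse.

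microRNAs are short RNAs cut from hairpin precursors. They guide Argonaute proteins to mRNAs, mainly through the seed, bases 2 to 8 of the mature strand, and microRNAs with 1 seed can pair with the same sites. miR-122 is the main microRNA of hepatocytes. Other cells of the liver are known for other microRNAs, such as miR-126 in endothelium, miR-155, miR-223 and miR-342 in white blood cells, miR-143, miR-145 and miR-214 in mesenchymal cells and the miR-200 family in epithelia such as the bile ducts. The chr12qF1 cluster lies in the imprinted Dlk1-Dio3 region, where the maternal allele is transcribed into the long RNAs Meg3, Rian and Mirg, which hold many microRNA precursors. It is active in the embryo and mostly silent in adult liver.

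The following mature sequences belong to the microRNAs outside the imprinted clusters on which the results turn, with the seed in capitals, 5′ to 3′. They were copied from RefSeq (GRCm38.p6), which has a mature entry for 206 of the 253 tested microRNAs. Each value in the table is for a whole precursor, so the strand shown is the one usually taken as the main product and its share of the reads is not known here. The first 5 are the miR-200 family, which has 2 seeds, and the next 3 share the miR-181 seed.
mmu-miR-200b-3p: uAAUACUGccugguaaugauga
mmu-miR-200c-3p: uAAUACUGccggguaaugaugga
mmu-miR-429-3p: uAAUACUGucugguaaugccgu
mmu-miR-200a-3p: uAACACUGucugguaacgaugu
mmu-miR-141-3p: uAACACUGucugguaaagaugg
mmu-miR-181c-5p: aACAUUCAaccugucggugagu
mmu-miR-181b-5p: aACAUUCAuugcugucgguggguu
mmu-miR-181d-5p: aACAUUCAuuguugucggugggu
mmu-miR-155-5p: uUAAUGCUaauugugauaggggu
mmu-miR-34a-5p: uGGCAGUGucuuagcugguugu
mmu-miR-342-3p: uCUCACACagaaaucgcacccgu
mmu-miR-802-5p: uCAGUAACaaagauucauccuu

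Below are 6 microRNAs of chr12qF1, among them those with large changes and the most abundant at day 45, in the order of the cluster.
mmu-miR-665-3p: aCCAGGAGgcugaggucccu
mmu-miR-127-3p: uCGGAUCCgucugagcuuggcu
mmu-miR-434-3p: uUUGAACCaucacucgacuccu
mmu-miR-376b-3p: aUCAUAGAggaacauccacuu
mmu-miR-376a-3p: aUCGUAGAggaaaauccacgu
mmu-miR-154-5p: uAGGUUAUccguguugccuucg

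miR-122 itself checked the labels. It took 73.3, 59.2 and 66.7% of all microRNA reads in day 0 mice A, B and C, and 0.908, 0.383 and 1.23% in day 45 mice A, B and C. No day 45 share came near a day 0 share (means 66.4% ± 7.06 and 0.839% ± 0.426, SD, n = 3 each). The widest 95% Wilson interval at day 45, 0.844 to 0.976% in mouse A, is for counting error only and leaves out the spread between mice. Without miR-122, the libraries held 215898 to 252521 reads at day 0 and 79365, 193168 and 527084 reads in day 45 mice A, B and C. A microRNA with no read may have up to 3, which is 13.9 RPM in the shallowest day 0 library and 37.8 RPM in day 45 mouse A. All levels below are RPM of reads other than miR-122, since the fall of miR-122 alone would raise the share of every other microRNA.

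Of the 253 tested microRNAs, 52 (20.6%) passed an adjusted p of 0.05 in limma, 51 (20.2%) higher and 1 lower at day 45. Both imprinted clusters studied, chr12qF1 and Igf2-H19, gave 32 of these calls from 33 tested members. Outside them, 20 of 220 passed (9.09%), 19 higher and 1 lower. That count was 10 without day 45 mouse B, 12 without day 0 mouse A, and 14 higher with 6 lower without day 0 mouse C. The median log2 fold change was 0.52 over all tested microRNAs and 0.30 over the 220, of which 156 (70.9%) lay within 1 log2 unit of 0. When each library was centred on its median log ratio instead, 40 of 46 calls were higher and 6 lower (outside the clusters 9 and 6), and the median of all tested microRNAs fell to 0.08. On the scale of all reads, with miR-122 counted, that median was 2.03. At day 45, 66 tested microRNAs (26.1%) had their 3 day 45 mice above the 3 day 0 mice and 8 (3.16%) had them below.

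**Figure D1:**
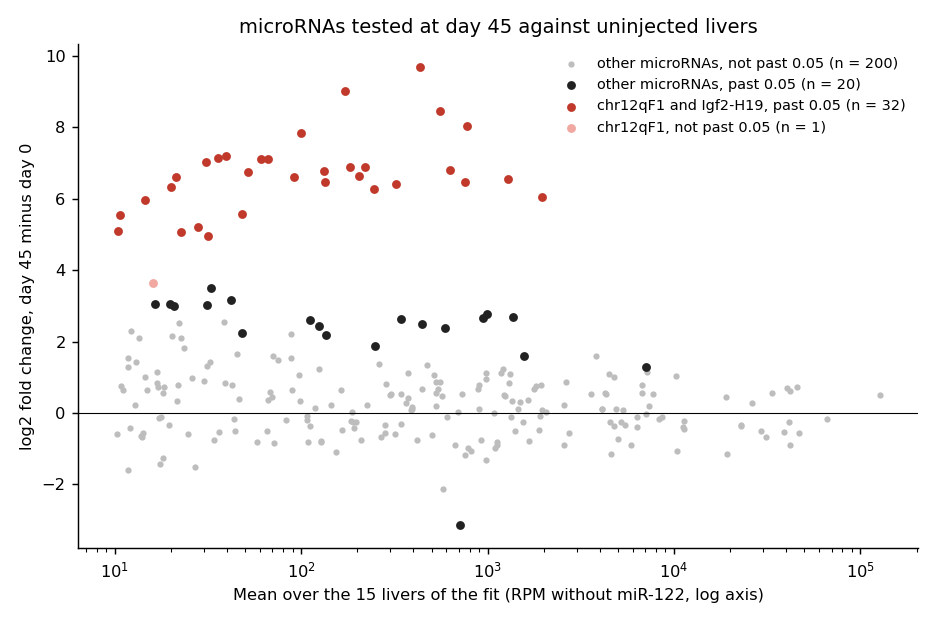
Log2 fold change at day 45 against day 0 (vertical) for 253 microRNAs by their mean RPM without miR-122 over 15 livers (horizontal, log axis). The 32 called members of chr12qF1 and Igf2-H19 (red) lie above 4, the 20 other called microRNAs (black) lie between -3.14 and 3.51, and the 200 grey points and miR-433 (pink) did not pass the threshold.

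As a sum, the chr12qF1 microRNAs rose. They took 0.0283, 0.0301 and 0.0339% of reads in day 0 mice A, B and C, and 1.07, 4.28 and 6.61% in day 45 mice A, B and C. The day 45 values lay far apart but all above day 0, and the summed level was 6.67 higher on the log2 scale (exact permutation test, two-sided p = 0.1, the smallest that 3 mice against 3 can give). Day 45 mouse A, the shallowest library, had the lowest level of the 3 in 26 of the 31 tested members. Leaving out any 1 mouse gave 6.12 to 7.44. Of 52 listed members, 45 had reads in these 6 livers and 31 were tested. All 30 that passed were higher (beside 20.2% of all tested), and miR-433 did not pass (log2 fold change 3.65, adjusted p = 0.127), with no read in day 45 mouse A. A member here passed the 10 RPM minimum mostly through the days on which it was high, so these counts describe and do not support the rise. The median log2 fold change was 6.64 (6.47 with the 8 members that had no day 0 read set to their lower bound), beside 0.52 for all tested microRNAs.

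**Figure D2:**
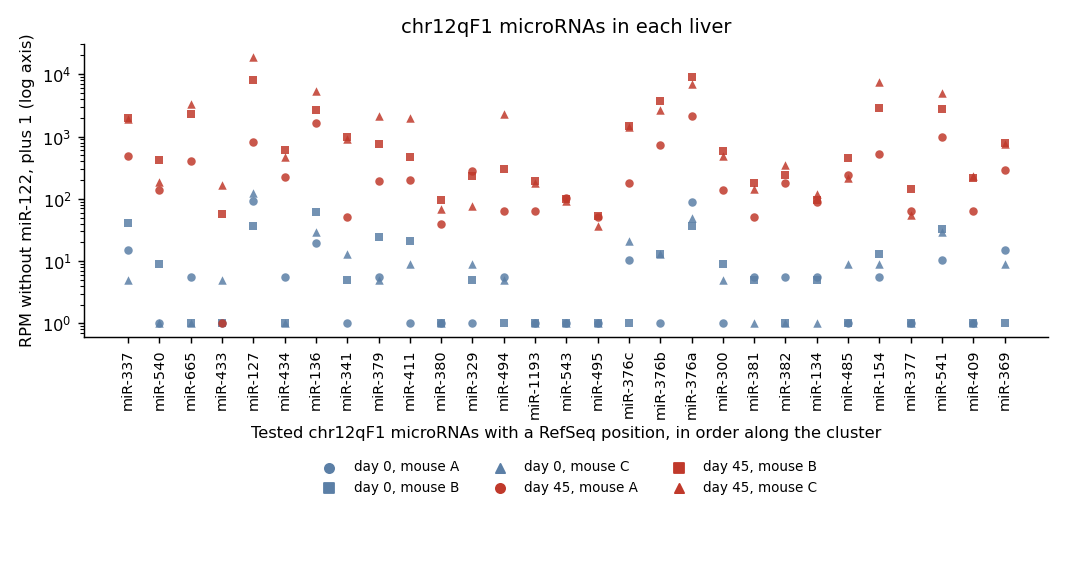
RPM without miR-122, plus 1 (log axis), of the 29 tested chr12qF1 microRNAs that have a RefSeq position, in their order along the cluster. Blue points are the 3 day 0 mice and red points the 3 day 45 mice. Red lies above blue throughout except at miR-433, and day 45 mouse A (red circles) is mostly the lowest red point.

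By level at day 45, the cluster was led by miR-127 and miR-376a. miR-127, cut from the transcript antisense to Rtl1, was at 92.5, 35.8 and 121 RPM in day 0 mice A, B and C and at 819, 8029 and 18684 RPM in day 45 mice A, B and C. Its fold change of means was 110.4 (log2 fold change 6.05 ± 0.88 SE, limma adjusted p = 2.93e-05). Without 1 mouse it ranged from 5.10 (without day 45 mouse C) to 7.35 (without day 45 mouse A). The day 45 mice spanned more than an order of magnitude, and the lowest of them was still above every day 0 mouse. miR-376a, in the Mirg part of the cluster, went from 88, 35.8 and 48.3 RPM to 2104, 9090.5 and 7012 RPM (106-fold, log2 fold change 6.56 ± 0.64, limma adjusted p = 5.01e-07). miR-154 reached 517, 2904 and 7539.6 RPM from 4.49, 12 and 8.1 RPM (log2 fold change 8.02 ± 0.91). Next to miR-376a, miR-376b went from 0, 12 and 12 RPM to 731, 3696 and 2677 RPM (log2 fold change 8.45 ± 1.00). Without 1 mouse the log2 fold change ranged from 7.15 (without day 45 mouse C) to 9.08 (without day 45 mouse A) for miR-154, from 7.22 (without day 0 mouse A) to 9.15 (without day 45 mouse A) for miR-376b and from 6.14 (without day 45 mouse B) to 7.2 (without day 45 mouse A) for miR-376a. All 4 were lowest in day 45 mouse A, while mouse B was highest for both miR-376 members and mouse C for miR-127 and miR-154.

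Apart from miR-376b and miR-154, the largest fitted changes belonged to members with at most 1 read over day 0. The size of these changes is known only as a bound or within a wide interval. miR-665 had 1 day 0 read, in mouse A, and 403, 2309 and 3292 RPM at day 45, a ratio of means of 1336 with an interval of 257 to 56611 from the counting of that day 0 read. miR-434 also had 1 day 0 read and reached 227, 616 and 465 RPM (291-fold, 56 to 12330). miR-382, again with 1 day 0 read, reached 176, 238 and 345 RPM (169-fold, 32.6 to 7165). Against no day 0 read in any mouse, miR-299 was at 164, 476 and 1783 RPM at day 45, at least 58.1-fold higher than 3 reads in the shallowest day 0 library (23-fold without day 45 mouse C). By the same bound miR-409 was at least 12.2-fold and miR-496 at least 12.1-fold higher (6.82-fold without day 45 mouse C for miR-496). The adjusted p of these 6 in limma lay between 1.06e-06 and 0.000117. They passed the 10 RPM minimum through the days on which they were high, so these p-values describe and do not support a rise. In all, 23 of the 31 tested members had at most 3 reads in each day 0 library.

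The tested members came from several stretches of the cluster, and nothing is shown for the stretches between them. RefSeq places 50 of the 52 listed members on the + strand of chromosome 12 within 180 kb, at chr12:109563692-109743795 (GRCm38.p6). The members between Meg3 and Rian, those antisense to Rtl1 included, had a median log2 fold change of 6.48 (6 of 7 tested passed), the single tested member of Rian, miR-341, 6.47, and those of Mirg 6.76 (23 of 23 passed). The summed level of the first group was 134, 143 and 161 RPM at day 0 and 3779.9, 16172 and 30204 RPM at day 45. For the Mirg group it was 148, 155 and 165 and 6879.5, 25646 and 34981 RPM. Mouse C was highest in both groups at day 45 and mouse A lowest. The 21 listed members that were not tested include 7 with no read in the 6 livers, and 3 others had all day 45 mice above day 0.

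The Igf2-H19 locus holds miR-675 in H19 and miR-483 in Igf2, and neither had a read in any day 0 mouse. miR-675 was at 37.8, 98.4 and 9.52 RPM in day 45 mice A, B and C (3, 19 and 5 reads, limma adjusted p = 0.00252), at least 3.5-fold higher than the day 0 limit (1.7-fold without mouse B). miR-483 was at 75.6, 383 and 0 RPM (6, 74 and 0 reads, adjusted p = 0.0328), at least 11-fold higher (2.72-fold without mouse B). Both reached the 10 RPM minimum mostly through the days on which they were high, so their p-values describe and do not support a rise. Mouse B carried most reads of both and mouse C had few or none, unlike chr12qF1, where mouse C was highest. At 9.52 RPM, miR-675 in mouse C was under the day 0 limit of 13.9 RPM, so mouse C cannot be told from day 0 at this depth. The miR-483 call was lost without day 0 mouse A or B or C or day 45 mouse A or B (log2 fold change 3.13 to 4.95, limma adjusted p = 0.0723 to 0.23) and also with libraries centred on their median, in the fit of 6 libraries, with voom weights or without day 45 mouse A under array weights (adjusted p = 0.0603 to 0.203). The long transcripts of these loci moved in the same direction and are given further on.

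Among microRNAs outside the clusters, most members of the miR-200 family rose past the threshold. These microRNAs are known as guards of the epithelial state that act on Zeb1 and Zeb2. Of 5 members, 4 passed the threshold, all higher (beside 9.09% of the 220 microRNAs outside the clusters), and all 5 had their day 45 mice above day 0 (beside 26.1% of all tested). The median log2 fold change was 2.60 (0.30 over the 220). miR-200a was at 394, 523 and 141 RPM in day 0 mice A, B and C and 1915, 2479.7 and 1577 RPM in day 45 mice A, B and C, 5.65-fold (log2 fold change 2.66 ± 0.55 SE, limma adjusted p = 0.000925). miR-200b was at 542, 523 and 129 RPM and 1688, 2599 and 2652 RPM (5.81-fold, adjusted p = 0.00252). Without day 0 mouse C the log2 fold change of miR-200b was 2.09 in place of 2.77, and the call held. Day 0 mouse C was the lowest liver for both, and the day 45 mice lay clear of all day 0 mice.

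miR-429, the third member of that transcript, was at 46.4, 95 and 20.1 RPM and 227, 279.6 and 243 RPM (4.64-fold, limma adjusted p = 0.00728). The 3 precursors lie at chr4:156053905-156055750 on the - strand (GRCm38.p6), with miR-200a 785 bases from miR-200b and 991 bases from miR-429. From the other cluster, miR-200c was at 60.3, 63.4 and 20.1 RPM and 227, 368 and 220.1 RPM (5.66-fold, adjusted p = 0.0137), a call lost without day 0 mouse C or day 45 mouse B (log2 fold change 2.07 to 2.36, limma adjusted p = 0.0641 to 0.0727). miR-141, 408 bases from miR-200c, did not pass (day 0 23.2, 31.6 and 0 RPM, day 45 50.4, 82.8 and 36 RPM, log2 fold change 2.55, adjusted p = 0.0778). Thus all 3 carriers of the AAUACUG seed passed, and of the pair with AACACUG miR-200a passed and miR-141 did not. miR-205, an epithelial microRNA with another seed that was listed with the family, rests on 2 reads over day 0 and 15 over day 45 (75.6, 10.3 and 13.3 RPM in mice A, B and C, ratio of means 12.7, 3.28 to 97.8 by day 0 counting), and its call was lost without day 0 mouse A or day 45 mouse A (log2 fold change 2.14 to 2.24, limma adjusted p = 0.114 to 0.133) and also with libraries centred on their median, without a minimum level, in the fit of 6 libraries or with voom weights (adjusted p = 0.0521 to 0.138).

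**Figure D3:**
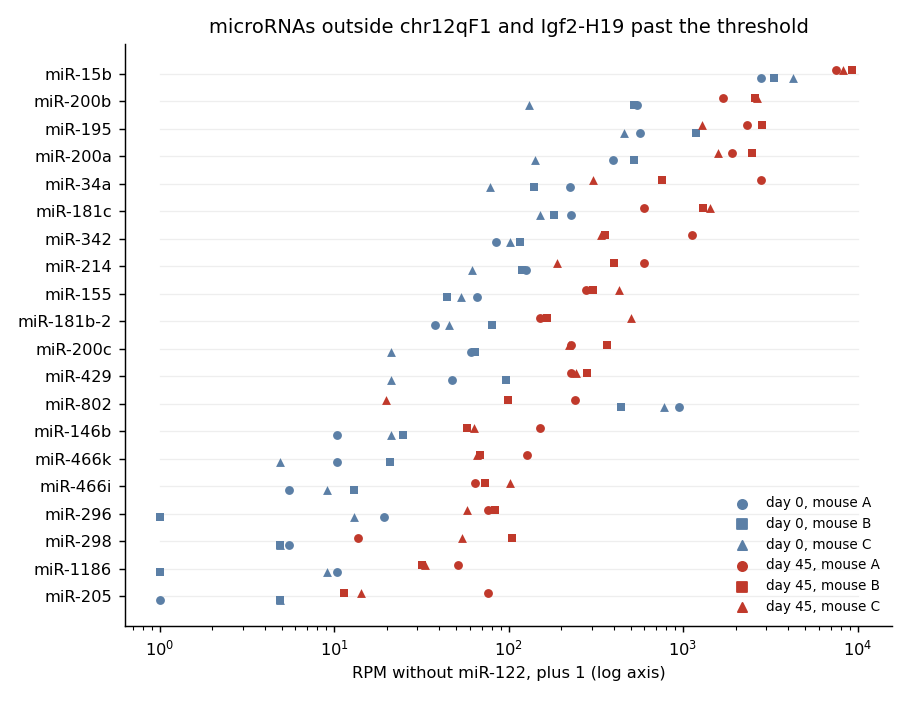
RPM without miR-122, plus 1 (log axis), of the 20 microRNAs outside chr12qF1 and Igf2-H19 that passed the threshold, ordered by their day 45 mean. Blue points are day 0 mice and red points day 45 mice. The 3 red points lie right of the 3 blue points for 19 microRNAs and left of them for miR-802.

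Epithelial mRNAs of bile ducts were measured by RNA-seq in livers of the same days. The mRNAs of Krt7, Krt19, Epcam, Sox9 and Spp1 (5 of 5) had all day 45 mice above day 0, as did 39.5% of the 11166 genes whose mean reached 1 FPKM (fragments per length and library total). Epcam was at 0.963, 1.04 and 1.28 FPKM at day 0 and 10.7, 36.4 and 20.5 FPKM at day 45. The list summed to 46.1 to 59.2 FPKM at day 0 and 405 to 1329.7 FPKM at day 45. Whether the miR-200 family moved with the number of such cells was not tested, and in bulk livers more cells of a type and more RNA per cell cannot be told apart.

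Of the 11 microRNAs listed for white blood cells, 4 passed and were higher (miR-155, miR-342, miR-146b and miR-181b-2, beside 9.09% of the 220), and the other 7 had positive log2 fold changes without passing, as 132 of the 220 had positive values (list median 1.33). miR-155, induced in activated lymphocytes and macrophages (chr16:84714140-84714204, + strand), was at 64.8, 43.6 and 52.5 RPM in day 0 mice and 277, 305 and 431 RPM in day 45 mice (6.3-fold, log2 fold change 2.62 ± 0.68, limma adjusted p = 0.00728). miR-342, from an intron of Evl at chr12:108658620-108658718 and thus outside the imprinted cluster of that chromosome, was at 83.5, 115 and 100.8 RPM and 1121, 357 and 339.6 RPM (6.08-fold, adjusted p = 0.0109). The 3 mice of a day lay close together for miR-155, whereas day 45 mouse A stood apart for miR-342, whose call was lost without day 45 mouse A (log2 fold change 1.81, limma adjusted p = 0.07). miR-146b was at 9.36, 23.8 and 20.1 RPM and 151, 56.9 and 62.6 RPM (adjusted p = 0.0339, 13 reads over day 0), lost without day 0 mouse A or day 45 mouse A or B (log2 fold change 1.79 to 2.49, limma adjusted p = 0.0513 to 0.153) and also with libraries centred on their median, without a minimum level, in the fit of 6 libraries or with voom weights (adjusted p = 0.0564 to 0.0921).

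miR-142, found in nearly all blood cells and the most abundant of the list, did not pass. It was at 2525, 1996 and 4331 RPM and 6350.4, 6595 and 4132 RPM (log2 fold change 1.00, limma adjusted p = 0.27), with groups that overlapped. miR-223, of neutrophils and monocytes, was at 598, 340.5 and 335 RPM and 983, 1129 and 643 RPM (log2 fold change 1.13, adjusted p = 0.252), without overlap. The list as a whole summed to 6087, 4399 and 7729 RPM at day 0 and 14036, 13123 and 10632 RPM at day 45. The leukocyte mRNAs Ptprc, Cd3e, Cd79a, Lyz2 and Itgam had all day 45 mice above day 0 (5 of 5, beside 39.5% of genes), for example Ptprc at 2.43, 2 and 3.87 and 8.71, 12.8 and 9.57 FPKM. Cd3e (means 0.246 FPKM at day 0 and 1.37 FPKM at day 45) did not reach the mean of 1 FPKM used for that share of genes. The part of these mRNAs in the microRNA values was not tested.

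The miR-181 family, with roles in lymphocyte development, shares the seed ACAUUCA over 6 tested precursors, and miR-181c and miR-181b-2 of these passed (2 of 6, beside 9.09% of the 220). miR-181b-2 is also 1 of the 4 calls of the white blood cell list. miR-181c was at 227, 182 and 149 RPM and 592, 1299 and 1417 RPM (5.92-fold, log2 fold change 2.48 ± 0.52, limma adjusted p = 0.00103), and it remained past the threshold in each of the 18 alternatives, as did miR-155, miR-200a, miR-200b and miR-429. miR-181d, 169 bases from it on chromosome 8, missed the threshold at 37.1, 79.1 and 28.2 and 139, 207 and 305 RPM (log2 fold change 2.21, adjusted p = 0.0592). miR-181b-2 was at 37.1, 79.1 and 44.4 RPM and 151, 166 and 505 RPM (adjusted p = 0.0185), a call lost without day 0 mouse A or day 45 mouse C (log2 fold change 1.62 to 1.96, limma adjusted p = 0.0838 to 0.115) and also with libraries centred on their median or in the fit of 6 libraries (adjusted p = 0.0656 to 0.0664). The 6 members ranged from 0.95 to 2.48 in log2 fold change, with the lowest value for miR-181a-1. Copies such as miR-181b-1 and miR-181b-2 give the same mature strand, so the division of reads between them is uncertain.

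miR-34a, a direct target of p53 (chr4:150068454-150068555, + strand), was at 222, 139 and 76.8 RPM in day 0 mice A, B and C and 2809.8, 756 and 304 RPM in day 45 mice A, B and C (8.84-fold, log2 fold change 2.69 ± 0.65, limma adjusted p = 0.00417). Day 45 mouse A was the highest by far and mouse C lay closest to day 0. The call held without any 1 mouse, with a log2 fold change of 1.84 (adjusted p = 0.034) without day 45 mouse A and 3.44 without day 45 mouse C, but not when the fit held just the 6 libraries of days 0 and 45 (adjusted p = 0.0701), nor without day 45 mouse A and with array weights (1.47, limma adjusted p = 0.0691). The related miR-34b and miR-34c were under the minimum and were not tested.

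miR-15b was the most abundant microRNA outside the clusters that passed, and the change was small. It was at 2779, 3330.3 and 4290.4 RPM and 7484, 9323 and 8298 RPM (2.41-fold, log2 fold change 1.29 ± 0.40, limma adjusted p = 0.0261), and the call was lost without day 0 mouse A or day 45 mouse B or C (log2 fold change 1.14 to 1.29, limma adjusted p = 0.0504 to 0.131) and also with libraries centred on their median or in the fit of 6 libraries (adjusted p = 0.129 to 0.237). Its neighbour miR-16-2, 130 bases away and cut from the same transcript, was at 4507, 10704 and 4068 RPM and 9286, 3965 and 3859 RPM (log2 fold change -0.16, adjusted p = 0.861), with overlapping groups. miR-195, of the same seed family, was at 565, 1180.1 and 456 RPM and 2318, 2832 and 1284 RPM (adjusted p = 0.0328), lost without day 0 mouse A or C or day 45 mouse A or B (log2 fold change 1.32 to 1.5, limma adjusted p = 0.0821 to 0.14) and also with libraries centred on their median or in the fit of 6 libraries (adjusted p = 0.122 to 0.133). Of the 7 tested members of this family, which includes regulators of the cell cycle, these 2 passed (beside 9.09% of the 220) and the median log2 fold change was -0.04.

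Of 6 microRNAs of mesenchymal cells, miR-214 passed, 1 call beside 9.09% of the 220 and 20.6% of all tested, which is near that background. It was at 125.05, 119 and 60.6 RPM and 592, 399 and 188 RPM (3.87-fold, limma adjusted p = 0.0328), and the call was lost without day 0 mouse A or C or day 45 mouse A or B (log2 fold change 1.49 to 2.05, limma adjusted p = 0.0512 to 0.131) and also with libraries centred on their median, in the fit of 6 libraries, with array weights, with voom weights or without day 45 mouse A under array weights (adjusted p = 0.0554 to 0.151). miR-199a-2, cut from the same long transcript, had a log2 fold change of 0.87 (adjusted p = 0.425). miR-145 was at 1806, 824 and 666 RPM in day 0 mice and 22919, 1367 and 877 RPM in day 45 mice (adjusted p = 0.275), so that a single liver, day 45 mouse A, lay far above the other 5. Stellate cell and fibroblast mRNAs (Col1a1, Col1a2, Acta2, Des and Pdgfrb) had all day 45 mice above day 0 (5 of 5, beside 39.5% of genes). Col1a1 was at 0.942, 0.648 and 0.881 FPKM and 7.2, 22.9 and 7.91 FPKM, and its part in the level of miR-214 was not tested.

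miR-296 and miR-298, 457 bases apart in the imprinted Gnas region, both passed at low levels. miR-298 was under the 10 RPM minimum at day 0 (mean 4.10 RPM) and reached it through later days, so its call describes and does not support a rise. miR-296 had 4, 0 and 3 reads in day 0 mice A, B and C and 75.6, 82.8 and 56.9 RPM at day 45 (limma adjusted p = 0.0204), lost without day 0 mouse B or day 45 mouse B (log2 fold change 2.18 to 3.40, limma adjusted p = 0.0631 to 0.128) and also with libraries centred on their median, without a minimum level, in the fit of 6 libraries, with array weights or without day 45 mouse A under array weights (adjusted p = 0.0548 to 0.103). miR-298 had 1 read in each day 0 mouse and 12.6, 103 and 53.2 RPM at day 45 (ratio of means 13.8, 4.61 to 65.3 by day 0 counting, adjusted p = 0.0444). Its call was lost without day 0 mouse A or B or C or day 45 mouse B or C (log2 fold change 2.41 to 3.12, limma adjusted p = 0.0907 to 0.207) and also with libraries centred on their median, without a minimum level or in the fit of 6 libraries (adjusted p = 0.0582 to 0.11). With the letters A to C fitted as a block miR-298 did not pass either. miR-335, in the imprinted gene Mest, had overlapping groups and a log2 fold change of 0.09.

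Of 51 names listed for the repeated miR-297, miR-466, miR-467 and miR-669 families, 11 were tested and miR-466i and miR-466k passed, beside 20.2% higher among all tested and 9.09% called outside the clusters. In 6 of the 11 the day 45 mice lay above day 0 (beside 26.1% of all tested), and the list summed to 100.3, 198 and 107 RPM at day 0 and 593, 301 and 635 RPM at day 45, without overlap. miR-466i was at 4.49, 12 and 8.1 RPM and 63, 72.5 and 100.5 RPM (limma adjusted p = 0.0298), lost without day 0 mouse A or C or day 45 mouse B or C (log2 fold change 2.84 to 3.22, limma adjusted p = 0.0573 to 0.108) and also with libraries centred on their median or without a minimum level (adjusted p = 0.0603 to 0.0703). miR-466k was at 9.36, 19.8 and 3.9 RPM and 126, 67.3 and 64.5 RPM (adjusted p = 0.0242), lost without day 0 mouse A or C or day 45 mouse A or B (log2 fold change 2.49 to 3.16, limma adjusted p = 0.0513 to 0.102) and also without a minimum level or without day 45 mouse A under array weights (adjusted p = 0.0509 to 0.0642). RefSeq places them on chromosomes 13 and 3, outside the Sfmbt2 intron on chromosome 2 that holds most of these families. Their repeated sequences can draw reads from near-identical copies, so these values are uncertain. miR-205, miR-466i and miR-1186, like miR-298, had day 0 means under 10 RPM and reached the minimum through later days, so their calls too describe and do not support a rise. miR-1186, the last of the 20, rests on 4 reads at day 0 and 4, 6 and 17 at day 45 (adjusted p = 0.0393), lost without day 0 mouse B or day 45 mouse A or B or C (log2 fold change 1.97 to 3.18, limma adjusted p = 0.0741 to 0.207) and also with libraries centred on their median, without a minimum level, in the fit of 6 libraries, with array weights or without day 45 mouse A under array weights (adjusted p = 0.0867 to 0.181).

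miR-802 was the single microRNA that fell past the threshold. It lies at chr16:93369720-93369816 on the + strand and is enriched in liver. It was at 949, 439.6 and 779 RPM in day 0 mice A, B and C and at 239, 98.4 and 18.9 RPM in day 45 mice A, B and C (log2 fold change -3.14 ± 0.86 SE, limma adjusted p = 0.0109). The 3 day 45 mice lay below the 3 day 0 mice, and mouse C, with 10 reads in the deepest library, was the lowest. The call was lost without day 45 mouse C (log2 fold change -2.16, limma adjusted p = 0.0983) and on the scale of all reads (-1.56, adjusted p = 0.117).

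The other microRNAs abundant in hepatocytes did not pass, and 9 of these 10 had negative log2 fold changes, beside 88 of the 220 (median -0.89). miR-148a was at 347, 2047 and 189.6 RPM and 176, 72.5 and 121 RPM (log2 fold change -2.14, limma adjusted p = 0.0787), without overlap. miR-101b was at 23451, 33926 and 9561 RPM and 10206, 7015 and 9558 RPM (log2 fold change -1.16, adjusted p = 0.132). miR-192, the most abundant of the list, was at 32001, 68652 and 29104 RPM and 25389, 13667 and 28411 RPM (log2 fold change -0.90, adjusted p = 0.33). Day 0 mouse B was the highest liver for all 3. Without day 0 mouse C, miR-148a (-2.85) and miR-101b (-1.68) passed. Both also passed with libraries centred on their median (-2.58 and -1.60, limma adjusted p = 0.017 each), and miR-101b with array weights (-1.32, adjusted p = 0.0437), while on the scale of all reads miR-101b and miR-192 turned positive. The hepatocyte mRNAs Ttr and Apoa1 were at 8163, 7879 and 9742 and 13489, 11396 and 11756 FPKM at day 0 and 7500.3, 8041 and 9972 and 8076, 6492 and 8982 FPKM at day 45. Alb and Serpina1c are listed at 0 FPKM in all 6 livers and Trf in 5, so these 3 give no check of the tissue.

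Negative values also prevailed in the miR-17-92 cluster and its paralogs, which are known from proliferating cells. Of 15 listed, 13 were tested, none passed in limma (1 had an unadjusted p under 0.05), and 12 had negative log2 fold changes, beside 88 of the 220 (median -0.58). miR-93 was at 996, 1952 and 759 RPM and 289.8, 689 and 486 RPM (log2 fold change -1.31, limma adjusted p = 0.0734), without overlap. miR-20a was at 806, 2095 and 396 RPM and 529, 362 and 292 RPM (-1.19, adjusted p = 0.216), with groups that overlapped. miR-130a, of another family, was at 10718, 18030.3 and 6252 RPM and 4775, 5658 and 4839.8 RPM (-1.07, adjusted p = 0.153). All 3 passed with libraries centred on their median or without day 0 mouse C, and turned positive on the scale of all reads.

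The microRNAs that make up most of the liver pool besides miR-122 did not pass. At both days miR-21 and the let-7 family led, and 8 of the 10 most abundant at day 0 were among the 10 most abundant at day 45. miR-21, often raised in injured liver, was at 45364, 223886 and 16959.5 RPM in day 0 mice and 124979, 52622 and 76022 RPM in day 45 mice (log2 fold change 0.51 ± 0.71, limma adjusted p = 0.713). The sign depends on the scale, since the plain means were 95403 RPM at day 0 and 84541 RPM at day 45. Day 0 mouse B alone held 22.4% of its reads in miR-21, and the log2 fold change was -0.34 without day 0 mouse C. On the scale of all reads miR-21 was at 2.09 and passed (limma adjusted p = 0.0185), where 131 of the 220 outside the clusters passed. let-7a-2 was at 89019, 32290.4 and 122304 RPM and 51660.0, 98318 and 49861 RPM (-0.16 ± 0.53), with day 0 mouse B the lowest of the 6.

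Within the let-7 family the members went both ways, none past the threshold. let-7f-1, let-7f-2 and let-7g had log2 fold changes of -0.52, -0.56 and -0.68, which turned positive on the scale of all reads. For let-7c-1 and let-7c-2 they were 0.69 and 0.73. On the scale of all reads both passed, at 2.27 and 2.31 (limma adjusted p = 0.000275 and 0.00023). let-7i, the 1 member with an unadjusted p under 0.05, was at 11144, 5045 and 9920.4 RPM and 9349, 23161 and 22245 RPM (1.04, limma adjusted p = 0.187). The family summed to 46, 19 and 53.1% of reads in day 0 mice and 30.2, 51.9 and 38.1% in day 45 mice, which overlap. let-7 members differ by few bases, and reads can be placed on the wrong member.

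miR-26b was at 59116, 20082 and 63782 RPM and 21533, 40095 and 31152 RPM (log2 fold change -0.50, limma adjusted p = 0.558). miR-126, the endothelial microRNA in an intron of Egfl7, was at 37749, 42476 and 38189 RPM and 33655, 28882 and 36749 RPM (-0.26 ± 0.42, adjusted p = 0.744), turning to 1.32 on the scale of all reads. Its 3 day 45 mice lay below its day 0 mice by a small margin, while Egfl7 mRNA went the other way, at 19, 13.9 and 15.9 FPKM and 27, 39.9 and 32.5 FPKM. The erythroid list (miR-451, miR-144, miR-486) had a median of -0.39 and the miR-30 family -0.24, with 0 of 3 and 0 of 6 members past the threshold in limma (none of either at an unadjusted p under 0.05). Of 9 tested microRNAs often raised in injured liver and liver cancer, none passed and 1, miR-182, had an unadjusted p under 0.05 (209, 265 and 109 RPM and 340.2, 425 and 744 RPM, log2 fold change 1.38, adjusted p = 0.0898).

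**Figure D4:**
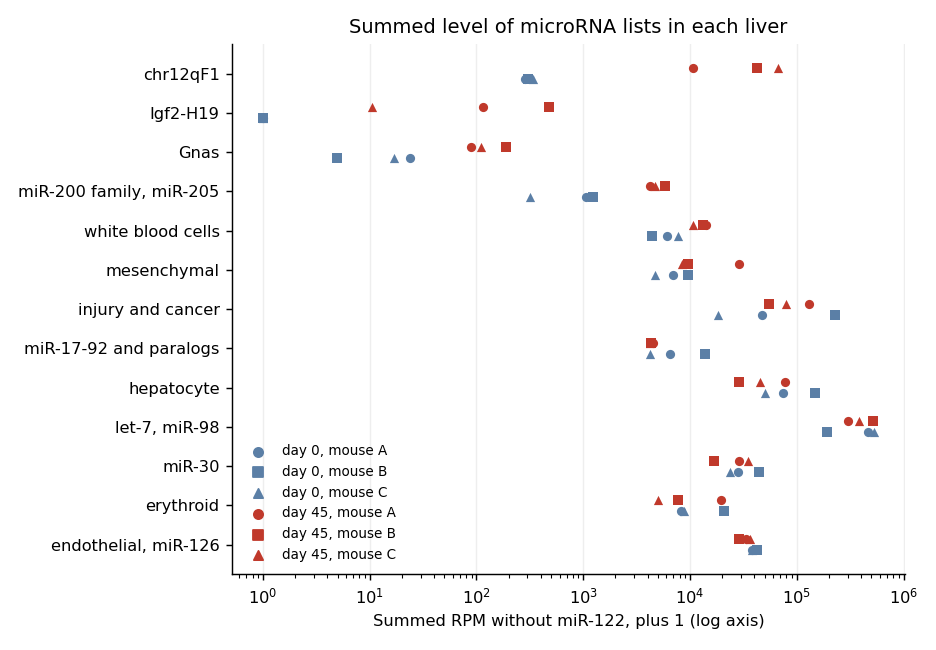
Summed RPM without miR-122, plus 1 (log axis), of 13 lists of microRNAs, each point 1 mouse (blue day 0, red day 45). chr12qF1, Igf2-H19, Gnas, the miR-200 family and the white blood cell list have every red point right of every blue one, while hepatocyte, let-7, miR-30 and erythroid points overlap. For Igf2-H19 the red point of mouse C (9.52 RPM) lies under the 13.9 RPM that 3 reads make in the shallowest day 0 library.

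RNA-seq gave a second readout of the transcripts that carry these precursors. Of 9 host transcripts, 7 had all day 45 mice above day 0, beside 39.5% of the 11166 genes whose mean reached 1 FPKM, a level that Nespas and Sfmbt2 did not reach. Meg3 was at 0.392, 0.181 and 0.348 FPKM in day 0 mice and 12.7, 89.4 and 61.3 FPKM in day 45 mice. Rian was at 0.236, 0.123 and 0.234 and 12, 45.6 and 38.9 FPKM, and Mirg at 0.015, 0 and 0.061 and 3.56, 12.4 and 8.45 FPKM. For these 3 transcripts of chr12qF1 the liver labelled A was the lowest at day 45 and B the highest. H19 was at 2.03, 0.415 and 0.486 FPKM and 391.7, 845 and 66.3 FPKM, and Igf2 at 1.82, 0.2 and 0.22 FPKM and 39.8, 255 and 3.66 FPKM. Both were highest in liver B and lowest in liver C, as were miR-483 and miR-675 in RPM. By the design text the small RNA libraries came from the same liver samples, but whether letters match between assays is not stated. With 3 livers against 3 an exact permutation test cannot go below p = 0.1, so no test is given for these transcripts. Sfmbt2 (0.086, 0.025 and 0.027 and 0.056, 0.039 and 0.038 FPKM) and Mest had overlapping groups, and Nespas, though counted among the 7, was at most 0.053 FPKM.

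**Figure D5:**
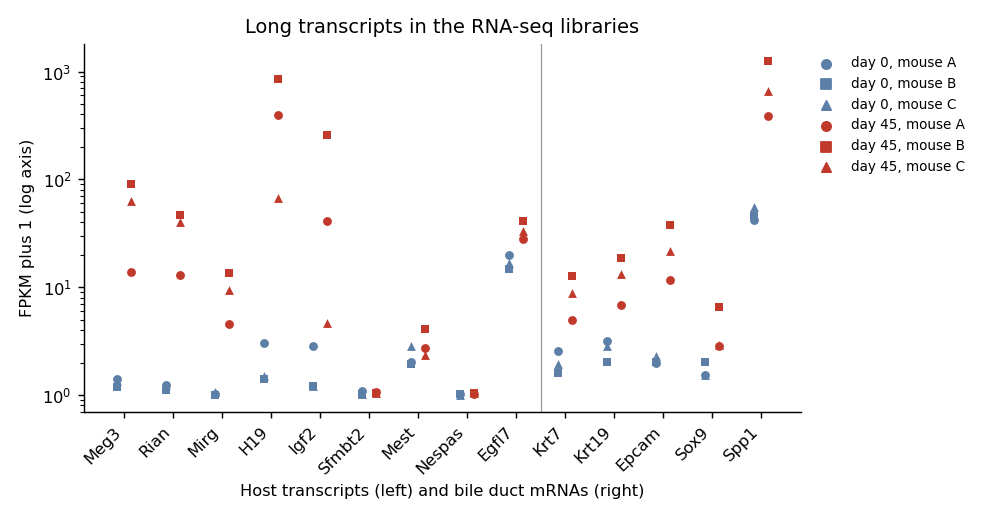
FPKM plus 1 (log axis) of 9 host transcripts (left of the line) and 5 bile duct mRNAs (right), each point 1 RNA-seq library (blue day 0, red day 45). Meg3, Rian and Mirg lie near 1 at day 0 and rise clear of it at day 45. H19 and Igf2 reach up to 2.03 and 1.82 FPKM at day 0, and Igf2 is at just 3.66 FPKM in day 45 liver C. Sfmbt2 and Nespas stay near 1, and the duct mRNAs are all higher at day 45.

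Levels in the other mice of the series place these values without a test, and some share the day 0 mice as their control. chr12qF1 took 7.29 and 5.19% of reads in the single mice of days 100 and 200, 1.49 and 6.98% in the 2 LKO_flox mice (Cre under the Albumin promoter), 27.2 and 23.4% in wild-type livers of embryonic day 18, and 0.0457 and 0.0359% in wild-type livers of postnatal day 270. At embryonic day 14 the cluster took 7.86 and 4.57%. Without miR-122, the first library of postnatal day 270 held just 21824 reads and the first of embryonic day 14 just 33960. The low shares in that postnatal day 270 library thus rest on few reads. The day 45 range of 1.07 to 6.61% lay above both postnatal day 270 livers and below both of embryonic day 18, and 1 of the embryonic day 14 livers lay inside it. The miR-200 family with miR-205 took 0.418, 0.582 and 0.474% at day 45, 0.924 and 0.887% at days 100 and 200, 0.858 and 0.486% in LKO_flox, 7.10 and 2.90% at embryonic day 14, 0.508 and 0.578% at embryonic day 18 and 0.0733 and 0.0249% at postnatal day 270. miR-802 was at 1668, 692 and 304 RPM at day 21, 27.8 RPM at day 100, 147 RPM at day 200, 909 and 610.4 RPM in LKO_flox and 6.6 and 54 RPM at embryonic day 18. The mice of days 45, 100 and 200 were all below the lowest day 0 mouse, as was 1 of the 3 mice of day 21.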

How the data were processed

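Small RNA of 17 to 28 nucleotides was sequenced from mouse livers, and the authors aligned reads to miRBase release 15 with Bowtie (0.12.7), allowing mismatches, and deposited RPM values with 1 added. This 1 was subtracted and each library was rescaled to its reads other than miR-122. Whole reads were derived from the step between low values for counting limits (100.0% of values were whole within 0.06 RPM). The deposited FPKM values were made by the authors with Cufflinks (2.2.1, mm9) from poly-A RNA.

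Log2(RPM + 1) of microRNAs whose mean reached 10 RPM over the 15 libraries of days 0, 7, 14, 21 and 45 was fitted with limma 3.58.1 (R 4.3.3) in 1 model with empirical Bayes and a mean-variance trend, and p-values were Benjamini-Hochberg adjusted over 253 microRNAs (threshold 0.05). Log2 fold changes are on the log2(RPM + 1) scale, which can lower or raise the changes of low microRNAs. Where a library had no read the change can come out too large, since 1 read was 3.96 to 4.63 RPM at day 0. For example, miR-409 was fitted at 7.20 with a bound of at least 12.2-fold. ± is the SE for log2 fold changes and the SD for means. A group stood above another when its lowest mouse exceeded the highest of the other.

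Folds against groups with no read used 3 reads in the shallowest day 0 library as a per-library floor. Ratios against 1 to 3 pooled day 0 reads carry an exact Poisson interval. Intervals cover counting error only, since PCR reads carry no molecular identifiers.

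The text names every called microRNA outside chr12qF1 and Igf2-H19, the 8 largest changes of chr12qF1 with miR-127 and miR-376a, both members of Igf2-H19, the 10 most abundant at day 0, the 5 falls with the smallest p short of the threshold, and called or abundant members of lists. Neighbours of called microRNAs, miR-433, miR-145, let-7i and miR-182 were named after their values were seen. Members and lists were chosen with earlier results of these data known. Alternatives covered scaling, filter, pseudocount, samples in the fit, weights, letters as a block and each mouse left out.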

Additional observations from a re-analysis of the deposited data

How the results depend on the processing

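Over the alternatives, 67 summary values were labelled unchanged and 10 moved, and a single value changed sign. That was the median outside the clusters with libraries centred on their median, -0.14. Counts of calls were judged by 1.5 times the reported count, and that median by 1 SD over the day 45 mice. The summed chr12qF1 change was labelled unchanged throughout without any limit, so its labels hold no information. Scaled to all reads, 164 microRNAs passed, 131 of them outside the clusters, and the median there was 1.75. A minimum of 100 RPM left 28 and 13 calls, and a fit of the 6 libraries alone left 11 calls outside the clusters, which has fewer degrees of freedom by construction. Leaving out 1 mouse gave 41 to 51 calls, 10 to 20 of them outside the clusters (12 without day 0 mouse A and 10 without day 45 mouse B), a median outside of 0.11 to 0.40, a summed chr12qF1 change of 6.12 to 7.44, a miR-122 change of -6.68 to -5.96 and 7 to 8 host transcripts above day 0. Without day 0 mouse C the outside calls were 14 higher and 6 lower. Without day 45 mouse A and with array weights, a setting chosen after seeing the data, the median outside was 0.033. As a share of other reads miR-122 changed by -7.93, against -6.31. With voom weights, also added after seeing the data, 51 and 19 passed.

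Scaling to all reads turned let-7a-2 to 1.42, let-7f-2 to 1.02, let-7f-1 to 1.06, miR-26b to 1.08, miR-192 to 0.68, miR-126 to 1.32, let-7g to 0.90, miR-93 to 0.27, miR-101b to 0.42, miR-130a to 0.51 and miR-20a to 0.39. let-7a-2, which ranged from -0.72 (without day 0 mouse B) upward, turned to 0.0097 without day 0 mouse A, 0.24 without day 0 mouse C and 0.014 without day 45 mouse C, and miR-21 to -0.34 without day 0 mouse C. The causes were not tested. With the letters as a replicate block 51 microRNAs passed, 19 outside the clusters, with miR-298 the call that did not pass. Same-letter deviations correlated at 0.027, -0.154 and 0.236, and mice did not all correlate best with their own letter. These values show no clear pairing by letter, and with 3 mice a day they cannot settle whether the letters pair the livers.

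Tests with edgeR and DESeq2 were planned and not run. The deposited unit is RPM with an added 1, and the derived reads served for voom weights and counting limits. Depth limits microRNAs of day 45 mouse A under 37.8 RPM and of day 0 under 13.9 RPM.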

Other observations

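Of 6 neuronal and 4 pancreatic microRNAs none reached the 10 RPM minimum. The neuronal list (miR-124 and miR-9) summed to 8.99, 11.8 and 12 RPM in day 0 mice A, B and C and 12.6, 36.3 and 133 RPM in day 45 mice A, B and C. The value of day 45 mouse A is a single read, far under the 37.8 RPM limit of that library, so whether the groups are apart cannot be told at this depth. Mouse C held most of it, with 20, 23 and 13 reads in the 3 miR-124 precursors, which share a mature strand. The pancreatic list summed to 13.9, 7.84 and 0 and 12.6, 10.3 and 18.9 RPM, with overlap. Of 9 muscle microRNAs 2 did, with a median log2 fold change of -1.11 and neither past the threshold in limma nor at an unadjusted p under 0.05. Of 12 microRNAs of embryonic stem cells, miR-290 and miR-294 were tested. miR-290 was at 0, 7.84 and 3.9 RPM in day 0 mice A, B and C and 113, 5.22 and 3.75 RPM in day 45 mice A, B and C (limma adjusted p = 0.304), and miR-294 at 9.36, 7.84 and 0 and 63, 0 and 5.67 RPM (adjusted p = 0.747). Of 7 tested microRNAs of the X-linked fetal cluster none passed (median -0.10, none at an unadjusted p under 0.05). The miR-99, miR-100, miR-125 and miR-10 group had positive log2 fold changes in 7 of 8 members, beside 132 of the 220 outside the clusters, 0 past the threshold in limma and 0 at an unadjusted p under 0.05 (median 0.54). Day 45 mouse A, the liver with the fewest reads, also held the highest levels of miR-145 (22919 RPM), miR-34a (2809.8 RPM) and miR-342 (1121 RPM) and the lowest chr12qF1 share (1.07%) of the 3 day 45 mice.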
